A study of Tachysurus vachellii with 6 samples.

Results

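The miR-103 and miR-107 family was followed through small RNA libraries of liver extracellular vesicles from the darkbarbel catfish, a farmed fish named Pelteobagrus vachellii in the labels and Tachysurus vachellii as organism. Rows were taken by name, as those that read miR-103 or miR-107 after the species prefix, with any suffix, and identical sequences were summed. This gave 8 rows under 7 names and 6 distinct sequences, here called entries, of 841 entries in the whole table. The comparison was 3 libraries from fish kept for 4 h in sealed water whose dissolved oxygen was held at 1.0 mg/L by bubbling nitrogen, against 3 libraries labelled normoxia at 4 h, where 6.8 mg/L was the oxygen level before it was lowered. All fish were acclimated and fasted before the experiment, and no genetic change was made. Vesicles were isolated from whole liver tissue, so they may come from any cell type of the organ. The labels do not say whether a library came from 1 fish or a pool, and p-values therefore measure only the spread between these libraries, which may be technical.

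MicroRNAs of about this size are cut in pairs from a hairpin precursor, and 1 arm usually loads into an Argonaute protein, which it guides to messages that match its seed, bases 2 to 8 from the 5′ end. In mammals the genes of miR-103 and miR-107 lie in introns of the pantothenate kinase genes, whose enzymes start the synthesis of coenzyme A, and the 3p arm is the main product. In mice the family targets caveolin-1 and lowers insulin sensitivity. In human cells it represses the miRNA-processing enzyme Dicer, miR-107 represses the hypoxia-inducible factor partner ARNT, and both were among the miRNAs linked to low oxygen in human cell lines. These roles are background and were not measured in the catfish.

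The 3p sequences are shown first because they carry nearly all counts of the family and because 2 of them can be told apart only by their ends. Capitals mark the seed and letters are DNA, as deposited.
dre-miR-103: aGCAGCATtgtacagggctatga
dre-miR-107a-3p_R-2: aGCAGCATtgtacagggctat
dre-miR-107b: aGCAGCATtgtacagggcttt
All 3 share the seed GCAGCAT, which no entry outside the family carried. The miR-103 sequence, of 23 nt, was listed under a carp name (ccr-miR-103) and a zebrafish name (dre-miR-103). dre-miR-107b, of 21 nt, differed from it by A20T (position counted from 1 at the 5′ end). dre-miR-107a-3p_R-2 was identical to miR-103 over all of its 21 bases and was 2 bases shorter. miR-103 and dre-miR-107b each had 2 listings with identical values, which were summed. The dre-miR-107b sums were odd whole numbers in hypoxia replicate 3 and normoxia replicates 1 and 3 (11019, 16009 and 7975). A single listing therefore held a fraction there, and only the sum was a whole count. The other members had 1 listing each, so levels, shares and ranks of the members depend on that sum.

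The 5p sequences are shown because they were the entries with the larger group differences, and because 2 of them differ by a pair of central bases only.
dre-miR-107a-5p_R-2_1ss19TC: aGCTTCTTtacagtgttgcct
ssa-miR-103-5p_R-3_2ss11TC13AG: aGCCTCTTtacggtgctgcct
ccr-mir-103-p5: aGCCTCTTtacaatgctgcct
All are of 21 nt. The salmon-named miR-103-5p differed from the carp-named ccr-mir-103-p5 by A12G and A13G and shared its seed GCCTCTT. miR-107a-5p differed from the salmon-named miR-103-5p by C4T, G12A and C16T, and the first of these falls in the seed, which becomes GCTTCTT. The 5p entries were set against the 3p entries antiparallel and without gaps, at the offset that gave the most pairs. Entries outside the family were not paired in this way. Each 5p entry formed 16 pairs with miR-103 and with miR-107a-3p and 17 with miR-107b, over 20 facing bases, G:U pairs included. Among these, Watson-Crick pairs numbered 14 or 15 for ccr-mir-103-p5, 12 or 13 for the salmon-named miR-103-5p and 11 or 12 for miR-107a-5p.

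The values of miR-103 and miR-107a-3p were linked in the deposited table. In 3 of 6 libraries both entries held fractions, and in each of these the sum of the 2 entries was a whole number to within 1e-06. In the other 3 libraries both entries were whole once listings were summed, so a whole sum there carries no information on the link. The miR-103 sums there were odd, at 2381 and 7431 in hypoxia replicates 1 and 3 and 6743 in normoxia replicate 3. Each of its 2 listings thus held a fraction in these libraries. miR-107a-3p took 4.71% to 6.07% of the sum of the 2 entries in the 6 libraries, with miR-103 at 2 listings. The fractions show that some counts were divided among listings. How many reads miR-103 and miR-107a-3p shared is not known. Their separate values are therefore uncertain, and they were also tested as 1 entry.

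Libraries held 2038301 to 8497217 counts, and 3 counts in a library corresponded to 0.353 to 1.47 CPM, the count per library total scaled to 1e6. PCR reads without molecular identifiers are not independent molecules, so such floors cover counting error only. Hypoxia replicate 1 was the shallowest, with 462 entries detected against 643 to 725 in the other 5 libraries. The hepatocyte markers miR-122, miR-192 and miR-194 were all present and summed to 238952 to 288063 CPM in hypoxia and 278889 to 290079 CPM in normoxia, where CPM is scaled with TMM factors.

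The 3p arms, the main strand of the family, overlapped between the conditions in level, and 3p entries held 92.9% ± 0.08 of family counts in normoxia and 90.7% ± 1.64 in hypoxia (SD, n = 3 each). miR-103 and miR-107b enter these percentages with 2 listings each. The whole family took 0.335%, 0.339% and 0.352% of counts in hypoxia replicates 1, 2 and 3 and 0.356%, 0.346% and 0.291% in normoxia replicates 1, 2 and 3. The hypoxia shares lay within the range of the normoxia shares.

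dre-miR-107b was the most abundant member and ranked 53 of 841 entries by total count. It measured 1785, 1784 and 1758 CPM in hypoxia replicates 1, 2 and 3 and 1903, 1951 and 1449 CPM in normoxia replicates 1, 2 and 3, from 3672 to 16009 counts per library. The hypoxia libraries lay close together between the normoxia libraries, of which replicate 3 was low. Means were 1775 ± 15.4 CPM and 1768 ± 277 CPM (SD, n = 3 each). The log2 fold change, hypoxia over normoxia, was 0.01 ± 0.13 (SE), with a 95% interval of -0.29 to 0.30 (edgeR quasi-likelihood test, Benjamini-Hochberg adjusted p = 0.989).

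miR-103, the second of the 3p arms by abundance, ranked 64 and held 37.2% of family counts over all libraries, against 52.6% for miR-107b. It measured 1158, 1275 and 1185 CPM in hypoxia replicates 1, 2 and 3 and 1359, 1263 and 1226 CPM in normoxia replicates 1, 2 and 3. The groups overlapped through hypoxia replicate 2. The log2 fold change was -0.09 ± 0.11 (SE), with an interval of -0.34 to 0.16 (edgeR, Benjamini-Hochberg adjusted p = 0.720).

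dre-miR-107a-3p_R-2, the short form with the sequence of miR-103, measured 69.0, 71.4 and 76.6 CPM in hypoxia and 77.0, 75.3 and 60.5 CPM in normoxia, in replicate order. The groups overlapped, and the log2 fold change was 0.03 ± 0.16 (edgeR, Benjamini-Hochberg adjusted p = 0.962). With miR-103 and miR-107a-3p taken as 1 entry, a choice made after their sequences were seen, the log2 fold change was -0.07 ± 0.11 (edgeR, Benjamini-Hochberg adjusted p = 0.779). The widest of the 3p intervals, that of miR-107a-3p, ran from -0.33 to 0.39 on the log2 scale.

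**Figure D1:**
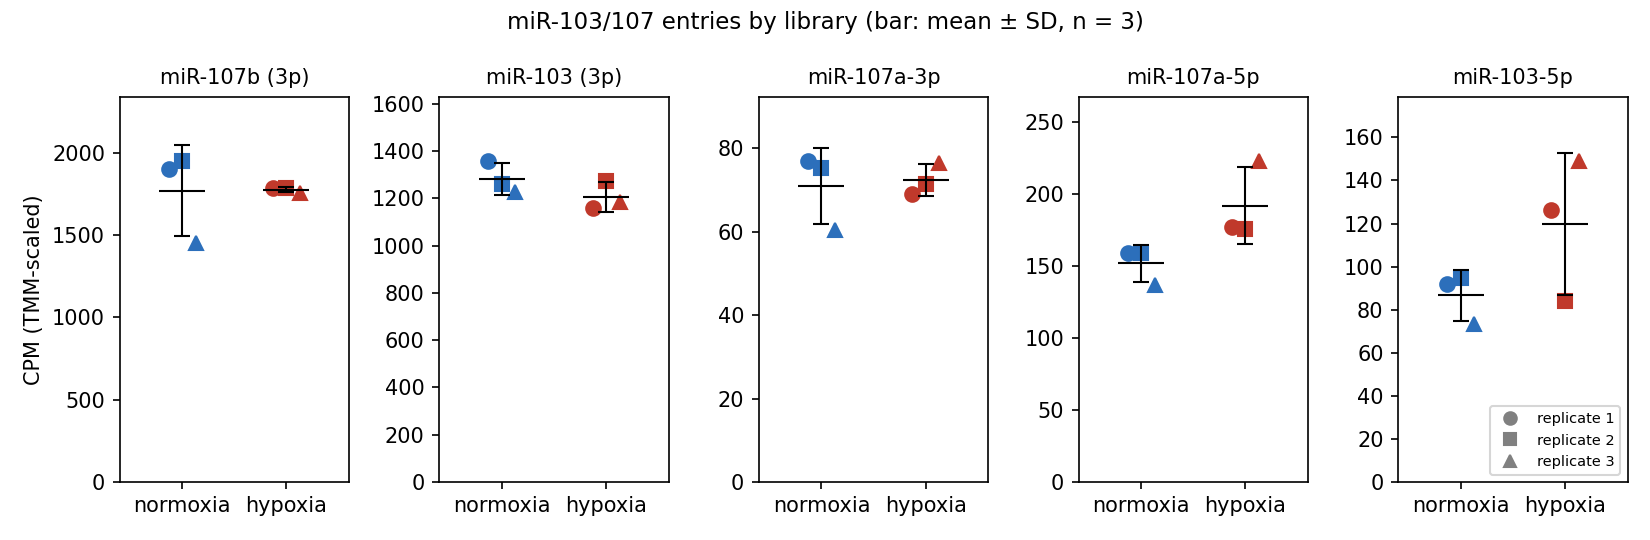
Levels of the 5 tested miR-103 and miR-107 entries in TMM-scaled CPM (y axis, from 0, its own range in each panel) by condition (x axis). Points are libraries with a symbol per replicate number, and bars are mean ± SD of 3 libraries; the miR-107a-5p points of hypoxia (176 to 223.2 CPM) lie above those of normoxia (137 to 159 CPM), and the other panels overlap.

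The 5p arms, the less abundant strands, had higher mean levels in hypoxia, and neither of the 2 tested 5p entries passed the threshold. dre-miR-107a-5p_R-2_1ss19TC measured 177, 176 and 223.2 CPM in hypoxia replicates 1, 2 and 3 and 159, 159 and 137 CPM in normoxia replicates 1, 2 and 3, from 364 to 1399 counts per library. Every hypoxia library lay above every normoxia library. This was the case for 11.8% of all tested entries. Means were 192.02 ± 26.98 CPM and 152 ± 12.9 CPM (SD, n = 3 each), and the log2 fold change was 0.34 ± 0.16 (SE) with an interval of -0.01 to 0.69 (edgeR, Benjamini-Hochberg adjusted p = 0.288).

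ssa-miR-103-5p_R-3_2ss11TC13AG measured 126.4, 84.2 and 149 CPM in hypoxia replicates 1, 2 and 3 and 91.9, 94.6 and 73.2 CPM in normoxia replicates 1, 2 and 3. Hypoxia replicates 1 and 3 were high and replicate 2 lay within the normoxia range, so the groups overlapped. The log2 fold change was 0.47 ± 0.22, with an interval of -0.03 to 0.96 (edgeR, Benjamini-Hochberg adjusted p = 0.293). Without hypoxia replicate 2 it passed at 0.69 ± 0.18 (edgeR, Benjamini-Hochberg adjusted p = 0.0415), in a fit where 52 of 540 entries passed. Without hypoxia replicate 3 it was 0.29 ± 0.23 (edgeR, Benjamini-Hochberg adjusted p = 0.609).

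ccr-mir-103-p5 was the rarest member, with 29 counts in all. It had 0, 16 and 8 counts in hypoxia replicates 1, 2 and 3 and 5, 0 and 0 in normoxia replicates 1, 2 and 3. It was left untested by the filter on low counts, and a count of 0 in hypoxia replicate 1 allows up to 1.47 CPM there. With no filter its log2 fold change was 2.40 ± 2.09 (SE), short of the threshold (edgeR, Benjamini-Hochberg adjusted p = 0.621 over 841 entries).

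Of the 6 members, 5 passed the filter and 0 of these passed an adjusted p of 0.05, against 14 of 519 tested entries, or 2.7%. The 14 were split as 8 higher (1.54%) and 6 lower (1.16%) in hypoxia, against 5 and 0 on library totals alone and 10 and 3 with upper-quartile scaling. None of the 5 had an unadjusted edgeR p under 0.05, against 18.5% of all tested entries. miR-107a-5p and the salmon-named miR-103-5p lay just past it, at unadjusted edgeR p of 0.055 and 0.061. On library totals alone their unadjusted edgeR p were 0.038 and 0.049, where 93 of 519 entries were under 0.05. With upper-quartile scaling they were 0.031 and 0.043, where 95 of 519 entries were under 0.05. DESeq2 and limma-voom also passed 0 of the 5, against 51 and 22 of all 519 tested entries. Each had 1 of the 5 at an unadjusted p under 0.05, miR-107a-5p, against 101 and 98 of the 519. The median log2 fold change of the 5 was 0.03, and that of all tested entries was -0.04.

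**Figure D2:**
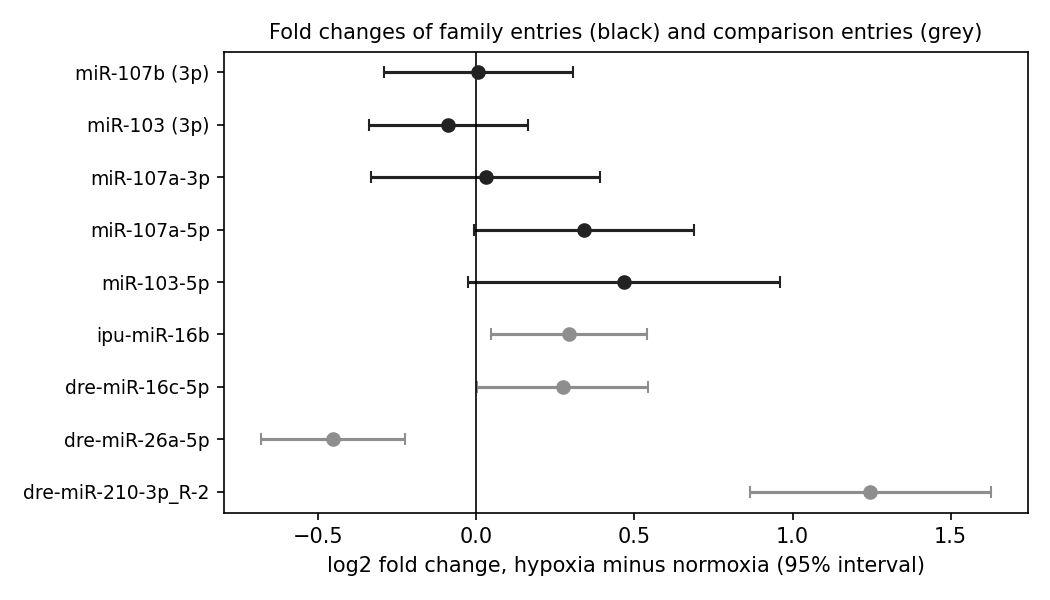
Log2 fold change of hypoxia over normoxia with its 95% interval (x axis, edgeR) for the 5 tested miR-103 and miR-107 entries in black and 4 entries of the comparison lists in grey. The 3p entries sit at -0.09 to 0.03 and the 5p entries at 0.34 and 0.47, all with intervals that include 0, while dre-miR-210-3p_R-2 lies at 1.25.

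The balance between arms does not depend on how libraries are scaled. It was examined after the levels had been seen and is given as a description. The balance does depend on the summing of listings, since miR-103 and miR-107b had 2 listings each and every 5p entry had 1. At listed values not summed, the 5p counts per 100 3p counts would be higher, and such ratios were not computed. As given above, single listings of miR-103 and miR-107b held fractions in libraries where their sums were whole. Per 100 counts of the 3p entries, the 5p entries had 10.1, 8.38 and 12.4 counts in hypoxia replicates 1, 2 and 3 and 7.54, 7.72 and 7.68 in normoxia replicates 1, 2 and 3. In this pooled ratio the normoxia libraries nearly coincided, and each hypoxia library lay above them by a different amount. The ratios of single entries given below spread more in normoxia. Arm ratios of other families were not computed, so how often such groups separate is not known. Among single tested entries, 11.8% lay wholly higher in hypoxia. miR-107a-5p stood at 9.91, 9.86 and 12.7 counts per 100 counts of miR-107b in hypoxia and at 8.36, 8.16 and 9.44 in normoxia. The names of these 2 entries differ and precursors were not looked up, so they need not be arms of 1 hairpin. The salmon-named miR-103-5p stood at 10.9, 6.60 and 12.6 per 100 counts of miR-103 in hypoxia and at 6.76, 7.49 and 5.98 in normoxia, where hypoxia replicate 2 again fell among the normoxia libraries. miR-107a-5p exceeded its named partner, with 246 to 291 counts per 100 counts of dre-miR-107a-3p_R-2 in hypoxia and 207 to 226 in normoxia. That comparison carries the uncertain split between miR-107a-3p and miR-103.

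Several other measures differed between libraries or between groups, and their part in the differences of the 5p entries was not tested. Across 329 entries of at least 10 CPM, the slope of log2 level, relative to each entry's mean, on GC content was 0.11 per 10 points in hypoxia replicates 1 and 3, -0.06 in hypoxia replicate 2 and -0.08 to -0.01 in normoxia. Length was fitted together with GC content. Its slope per nt was -0.005, -0.066 and -0.030 in hypoxia replicates 1, 2 and 3. In normoxia replicates 1, 2 and 3 it was 0.079, 0.043 and -0.021. The salmon-named miR-103-5p has 57.1% GC, and with offsets for GC content and length its log2 fold change was 0.29 ± 0.20 (edgeR, Benjamini-Hochberg adjusted p = 0.463). miR-107a-5p has 42.9% GC and stayed at 0.33 ± 0.15 (edgeR, Benjamini-Hochberg adjusted p = 0.312). With the same offsets, miR-103, of 23 nt, lay at -0.02 ± 0.10 (edgeR, Benjamini-Hochberg adjusted p = 0.959).

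Summed levels of some marker lists of other cell types did not overlap between groups, though only the red blood cell list had entries that passed edgeR. Among single tested entries, 11.8% lay wholly higher and 14.3% wholly lower in hypoxia. No such share was computed for summed lists. Over all 519 tested entries, edgeR passed 14, DESeq2 51 and limma-voom 22, and 18.5% had an unadjusted edgeR p under 0.05. Families miR-144, miR-451 and miR-486 of red blood cells were all above 0. They summed to 7203 to 9174 CPM in hypoxia and 4842 to 5917 CPM in normoxia. Of 7 tested entries, 2 passed as higher in hypoxia, where 1.54% of all tested entries did. These were dre-miR-451 at 0.60 ± 0.13 and gmo-miR-144-3p at 1.09 ± 0.23 on the log2 scale (edgeR, Benjamini-Hochberg adjusted p = 0.0494 for each). Both lay close to the threshold, and without normoxia replicate 2, 0 of 543 entries of the whole table passed. dre-miR-451 made up most of the red blood cell sum. The rare bta-miR-486 lay lower in hypoxia, at 7.78 to 12.1 CPM against 13.1 to 31.99 CPM, and missed the threshold (edgeR, Benjamini-Hochberg adjusted p = 0.152). Endothelial miR-126, also above 0, summed to 15768 to 17733 CPM in hypoxia and 11829 to 13516 CPM in normoxia, with 0 of 4 entries passing edgeR, 1 of 4 at an unadjusted p under 0.05 and 1 of 4 passing DESeq2 or limma-voom. The epithelial list (miR-200, miR-203, miR-205 and miR-429) was lower in hypoxia as a sum, at 2549 to 2956 CPM against 3017 to 3372 CPM. Of its 12 entries, 0 passed edgeR, DESeq2 or limma-voom and 2 had an unadjusted edgeR p under 0.05. Each of the 12 overlapped between groups, and most of the sum was dre-miR-200a-3p_R+1. Against the sum, ipu-miR-200c_R-1, ccr-miR-205_R+1, dre-miR-200c-3p_R+1 and ami-miR-429-3p_R+3 had log2 fold changes of 0.17, 0.15, 0.40 and 0.10. The rest were negative. The pancreas list (miR-216, miR-217 and miR-375) was lower by a narrow gap, at 1121 to 1398 CPM against 1399 to 1653 CPM, with 0 of 4 entries passing edgeR, 2 at an unadjusted edgeR p under 0.05 and 1 passing DESeq2. Its member dre-miR-216a went the other way in mean, at 0.49 ± 0.24 on the log2 scale (edgeR, Benjamini-Hochberg adjusted p = 0.303), and dre-miR-375_R-1 was high in normoxia replicate 1, at 219.3 CPM against 48.2 to 102 CPM in the other 5 libraries. The summed levels of the hepatocyte, leukocyte, muscle, stromal and neural lists overlapped between groups. In bulk vesicles, a change in the vesicles a cell type contributes and a change in their RNA content cannot be told apart.

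The sums of entries named miR-107 and of those named miR-103 had overlapping ratios in the 2 conditions. The split was by name and pooled both arms. It counted miR-107a-3p with miR-107, although its split from miR-103 is uncertain. The log2 ratio of the miR-107 sum to the miR-103 sum was 0.66, 0.58 and 0.62 in hypoxia replicates 1, 2 and 3 and 0.56, 0.69 and 0.34 in normoxia replicates 1, 2 and 3. The groups overlapped, and the difference of 0.09 had an exact two-sided permutation p of 0.6, where 0.1 is the smallest the design allows. Between the main sequences alone, miR-107b had 154, 140 and 148 counts per 100 counts of miR-103 in hypoxia and 140, 154.5 and 118 in normoxia, in replicate order. Normoxia replicate 3 was the low library in this ratio as in the level of miR-107b.

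**Figure D3:**
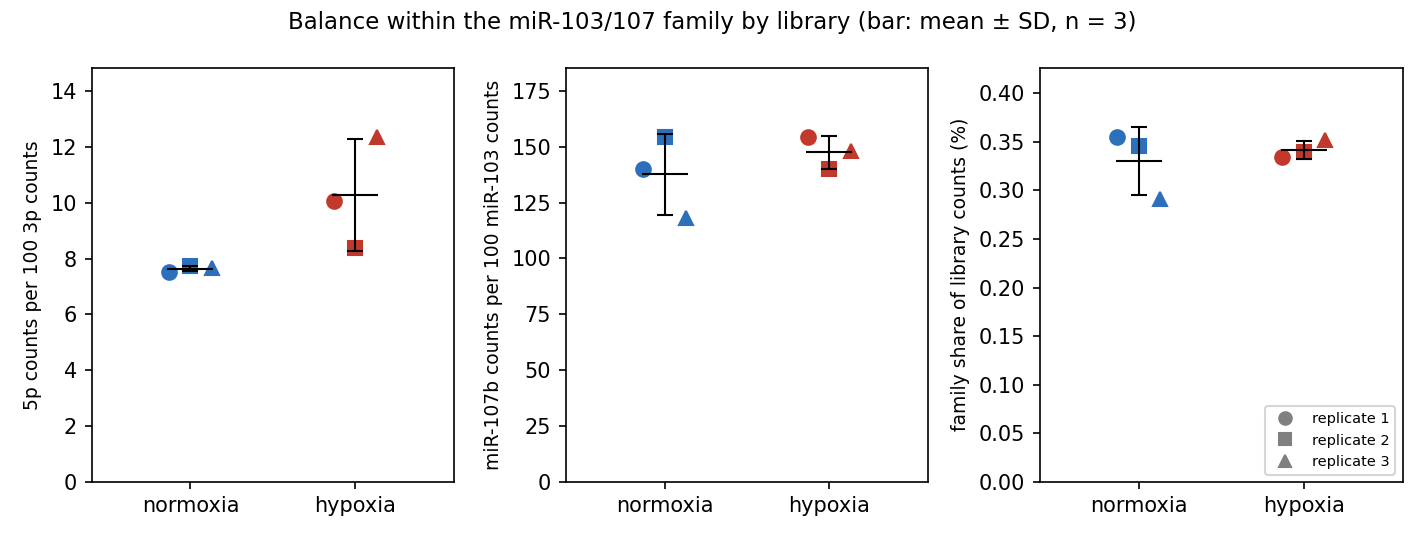
Counts of 5p entries per 100 counts of 3p entries, counts of miR-107b per 100 counts of miR-103, and the family's share of library counts in percent (y axes, from 0) by condition (x axis). Points are libraries and bars are mean ± SD of 3 libraries. Only in the first panel do the groups not overlap, at 8.38 to 12.4 in hypoxia and 7.54 to 7.72 in normoxia. That ratio was examined after the levels were seen and was not computed for other families.

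Members differed in how steady they were over all 6 libraries. Among 173 tested entries whose mean reached 100 CPM, the SD of log2 CPM over the libraries had a median of 0.20. miR-103, a miRNA often used as a reference in measurements by quantitative PCR, had an SD of 0.08, the fourth smallest of the 173. Its values carry the uncertain split from miR-107a-3p. miR-107b had 0.15 and ranked 51 from the smallest, miR-107a-5p had 0.23 and ranked 114, and the salmon-named miR-103-5p had 0.38 and ranked 156. The last lies just above the floor of 100 CPM with 103.2 CPM.

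**Figure D4:**
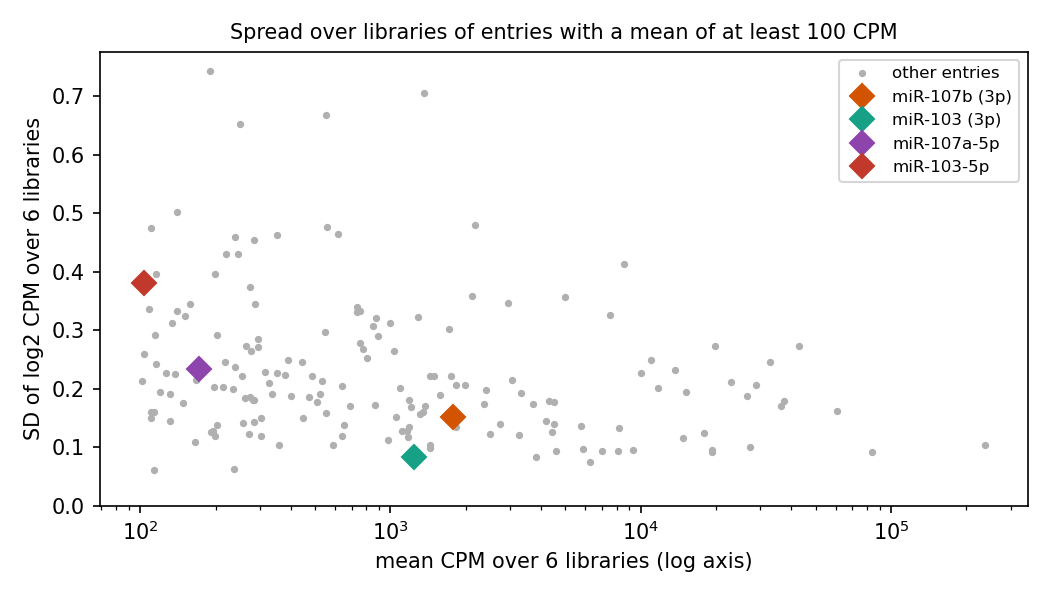
SD of log2 CPM over the 6 libraries (y axis) against mean CPM (x axis, log scale) for 173 tested entries whose mean reached 100 CPM, with 4 miR-103 and miR-107 entries as diamonds. miR-103 at an SD of 0.08 lies at the lower edge of the cloud, and miR-103-5p at 0.38 lies high in it.

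Members also moved along different lines from library to library. Over the 6 libraries, which share the 2 conditions and the library trends given above, log2 CPM of the 2 tested 5p entries had a Pearson r of 0.88, and miR-107b and miR-107a-3p one of 0.90. miR-103 and its 5p entry had an r of -0.58. These were the highest and lowest values among pairs of tested members. miR-103 had an r of 0.35 with miR-107a-3p and 0.36 with miR-107b. Values with miR-103 or miR-107a-3p carry the uncertain split between these entries. Outside the family, the entries closest to miR-107b among 169 candidates were gmo-miR-128-3p (r = 0.75), mmu-miR-6240_L-1R-6_1ss19CT (r = 0.74) and ssa-miR-142b-5p_R-1_2ss14GA17TC (r = 0.74). gmo-miR-128-3p stood at 5535 to 5973 CPM in hypoxia and 5416 to 6455 CPM in normoxia, with log2 fold change -0.07 ± 0.11 (edgeR, Benjamini-Hochberg adjusted p = 0.768).

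The seed of the family, shifted by 1 base, is also part of the group of miR-15, miR-16 and the fish miRNA miR-457, whose mammalian members restrain cell cycle genes in mammals. It is shown for that shared stretch, with the seed in capitals.
dre-miR-16c-5p: tAGCAGCAtgtaaatattggag
The seed AGCAGCA was found in 7 entries, all of them in this group of 12 entries, which held 7 of miR-15, 4 of miR-16 and 1 of miR-457. All 12 were tested and 0 passed edgeR, where 2.7% of all tested entries did. DESeq2 and limma-voom each passed 1, against 51 and 22 of all 519 tested entries. Of the 12, 4 had an unadjusted edgeR p under 0.05, against 18.5% of all tested entries. The hypoxia libraries lay above the normoxia libraries in 5 of the 12, against 11.8% of all tested entries, and the median log2 fold change was 0.29, against -0.04 for all tested entries. The lowest p belonged to ccr-miR-457a_L+1R+1, named after its values were seen, at 0.66 ± 0.16 (edgeR, Benjamini-Hochberg adjusted p = 0.069). Without it, 4 of 11 entries did not overlap, 3 had an unadjusted p under 0.05 and the median was again 0.29. The most abundant of the group were ipu-miR-16b and dre-miR-16c-5p. ipu-miR-16b measured 1602, 1502 and 1417 CPM in hypoxia and 1268, 1194 and 1230 CPM in normoxia, or 0.29 ± 0.11 as a log2 fold change (edgeR, Benjamini-Hochberg adjusted p = 0.193). dre-miR-16c-5p had one of 0.27 ± 0.12 (edgeR, Benjamini-Hochberg adjusted p = 0.267). The counts and median of the group cover all 12 entries, not only the 7 with the seed AGCAGCA. The 3p entries of miR-103 and miR-107 lay at -0.09 to 0.03, and the difference between the lists was not tested.

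Other families of the panel that human cell lines raised at low oxygen (miR-23, miR-24, miR-26, miR-27, miR-181 and miR-210) had 35 tested entries, of which 2 rose, 2 fell and 31 did not pass, where 2.7% of all tested entries passed. DESeq2 passed 7 of the 35 and limma-voom 5, against 51 and 22 of all 519 tested entries. Of the 35, 10 had an unadjusted edgeR p under 0.05, against 18.5% of all tested entries. Those that rose were the arms of miR-210, the miRNA most widely induced by hypoxia. dre-miR-210-3p_R-2 had a log2 fold change of 1.25 ± 0.17 and dre-miR-210-5p_1ss20TC one of 1.34 ± 0.14 (edgeR, Benjamini-Hochberg adjusted p = 0.0080 and 0.0021). The 2 lower in hypoxia were dre-miR-26a-5p and gmo-miR-26b-5p_R+1_1ss22TA, at -0.45 ± 0.10 and -1.19 ± 0.26 (edgeR, Benjamini-Hochberg adjusted p = 0.0494 for each). Each of these calls held in 7 of 18 alternatives and was lost on library totals, with upper-quartile scaling, with GC and length offsets and in 5 of 6 fits that left out a library. The call of miR-210-3p was lost in 4 of those 6, without hypoxia replicate 1 or 3 or normoxia replicate 1 or 2, and that of miR-210-5p in 1, without normoxia replicate 2. The median of the panel was -0.05, close to that of all tested entries. dre-miR-26b, next in abundance, lay at -0.35 ± 0.10 and missed the threshold (edgeR, Benjamini-Hochberg adjusted p = 0.088).

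Of families that, like miR-103 and miR-107, are linked to insulin and lipid metabolism in mammals (miR-27, miR-29, miR-33, miR-34, miR-143, miR-370, miR-378 and miR-802), 22 entries were tested and 0 passed edgeR. The 22 were 9 of miR-27, 8 of miR-29, 2 of miR-33, 1 of miR-34 and 2 of miR-143, so miR-370, miR-378 and miR-802 had no tested entry. Of the 22, 5 had an unadjusted edgeR p under 0.05, against 18.5% of all tested entries. DESeq2 passed 1 and limma-voom 0, against 51 and 22 of all 519 tested entries. The median log2 fold change of the 22 was -0.05. The most abundant were oni-miR-143_1ss20TA at 0.02 ± 0.18 and oni-miR-27b at -0.04 ± 0.12 (edgeR, Benjamini-Hochberg adjusted p = 0.976 and 0.886).

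Without hypoxia replicate 1, the library that stood apart in depth, the log2 fold changes were 0.05 for miR-107b, -0.01 for miR-103, 0.11 for miR-107a-3p, 0.45 for miR-107a-5p and 0.49 for the salmon-named miR-103-5p, and none passed (edgeR, Benjamini-Hochberg adjusted p from 0.259 to 0.973).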

How the data were processed

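Estimated counts, not scaled to library size, came as deposited in 1 table of 1088 rows, each giving the name and sequence of a miRNA. Per the labels' protocols, adapters were ligated to vesicle RNA, and reads were truncated to single ends. Aligner, caller, build and filters were not given in the sources used here. Identical sequences (874 distinct) were summed. All listings of a sequence held identical values, so each sum is that value times the number of listings. In 18 cases, different sequences with the same family number in their names and identical values in all libraries were joined, giving 841 entries. Precursors were not looked up. Values were rounded and tested in edgeR 4.0.16 (R 4.3.3) with filterByExpr, TMM factors and the quasi-likelihood F test on 2 groups without a block, adjusted by Benjamini-Hochberg over 519 entries. SE is the absolute log2 fold change over the square root of F. DESeq2 1.42.0 and limma 3.58.1 were alternatives. In simulated counts of 502 entries for this comparison, 85 entries had log2 changes of 1 and 112 had changes of 2. Of these, 69.4% and 95.5% were called. In the data 14 of 519 entries passed, and with fewer changed entries the adjusted threshold is stricter. No change of a size between 0 and 1, as estimated for the tested members, was simulated. Members and lists were chosen with earlier results of these data known. All members were named. Of each list, called entries and the 2 most abundant were named, and the 3 entries most like miR-107b. Design notes written beforehand had assumed whole counts. Predicted entries (306, named PC) stayed out of lists.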

Additional observations from a re-analysis of the deposited data

How the results depend on the processing

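Entries called over the whole table (14, split 8 higher and 6 lower) numbered 5 on library totals, 51 with DESeq2, 22 with limma-voom, 59 with no filter, 3 with sequences kept apart, 3 with GC and length offsets and 4 with miR-103 and miR-107a-3p joined, a choice made after seeing the data. With 1 library left out they ranged from 0 to 52; the 0, without normoxia replicate 2, had 73 entries at an unadjusted p under 0.05. With the replicate number as a block 7 were called. Same-numbered libraries did not deviate together (Pearson r of -0.13, -0.06 and -0.05). With 3 libraries per group, such correlations cannot exclude a pairing by number. The block put no member past the threshold.

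No member passed under any alternative except the salmon-named miR-103-5p without hypoxia replicate 2. Its log2 fold change ranged from 0.29 to 0.69 with 1 library left out, and that of miR-107a-5p from 0.24 to 0.45. The 3p entries lay near 0 and changed sign: miR-107b measured -0.0088 with no filter, -0.015 with annotated entries only, -0.062 with offsets and -0.10 to 0.11 with 1 library left out, miR-107a-3p -0.039 with offsets and -0.053 to 0.14, and miR-103 -0.13 to 0.0036. The difference in the log2 ratio of miR-107 to miR-103 ranged from -0.0028 to 0.17. At listed values not summed, the family's share was 0.229% in hypoxia and 0.216% in normoxia. Single listings of miR-103 and miR-107b held fractions in some libraries where the sums were whole. At 29 counts in all, ccr-mir-103-p5 could be fitted only with no filter. The cause of these shifts was not tested.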
